A study of Mus musculus with 6 samples.

Results

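The Ier and Zfp36 genes are early-response genes, and 6 of them (Ier2, Ier3, Ier5, Zfp36, Zfp36l1 and Zfp36l2) were followed in the mouse suprachiasmatic nucleus (SCN) at the end of a light pulse given in the early night. They were taken by name from the annotation of the array platform, which gave 11 of the 22626 probe sets and 6 of the 12393 named genes. Ier2 stood highest after the light pulse, at 2.34-fold over the sham light pulse, but none of the 6 genes passed the test across all probe sets. Zfp36, which encodes tristetraprolin, had low signals on every array.

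The light pulse group was made of adult male C57BL/6 mice, 2 to 4 months old, that received 2400 lux for 30 minutes. The pulse began when their 14:10 light/dark cycle had been dark for 1 hour. The sham light pulse group was made of mice of the same strain, sex, age range and housing that stayed in the dark over the same time. SCN was lifted from stained brain sections by laser capture in both groups, RNA of 3 mice was pooled for each array, and each group had 3 arrays. With 1 ng of RNA per pool copied through 2 rounds of amplification, each array reports a pool and not an animal, and the sources do not say that the pools shared no mice. The description of each sample speaks of 1 animal, but its protocol describes the pool. The labels also call the start Zeitgeber time 13, which would fall before lights off in this cycle if counted from lights on, and the time given relative to lights off is used here.

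Immediate-early genes are switched on by signals already present in the cell, without new protein synthesis, and in the SCN light at night starts this program through glutamate release from retinal fibres, calcium entry, MAP kinase and CREB. The Ier genes encode small proteins that appear early in such programs. Ier2 and Ier5 are related to each other in their amino-terminal part, whereas Ier3 (IEX-1) is not of that family and acts on cell survival and MAP kinase signaling. The Zfp36 genes encode CCCH zinc-finger proteins that bind AU-rich elements in the tails of short-lived mRNAs, bring in the CCR4-NOT deadenylase and so shorten the life of immediate-early transcripts, among others.

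The promoters of 4 of the 6 genes were read from RefSeq (build GRCm38.p6), and they are printed because conserved cAMP response elements (CRE) and TATA elements were the features that the study looked for in its light-induced genes. Each window runs from 250 bases before the transcription start to 50 bases after it, in the direction of the gene (the base before the start is -1), and capitals mark every match to a searched motif.
Ier3, chr17:35821463-35821762, plus strand: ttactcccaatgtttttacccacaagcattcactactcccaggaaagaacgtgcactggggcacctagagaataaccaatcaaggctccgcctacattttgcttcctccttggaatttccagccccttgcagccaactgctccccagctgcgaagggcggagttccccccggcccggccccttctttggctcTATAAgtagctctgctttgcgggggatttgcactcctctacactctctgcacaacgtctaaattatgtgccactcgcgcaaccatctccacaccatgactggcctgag
Ier5, chr1:155099587-155099886, minus strand: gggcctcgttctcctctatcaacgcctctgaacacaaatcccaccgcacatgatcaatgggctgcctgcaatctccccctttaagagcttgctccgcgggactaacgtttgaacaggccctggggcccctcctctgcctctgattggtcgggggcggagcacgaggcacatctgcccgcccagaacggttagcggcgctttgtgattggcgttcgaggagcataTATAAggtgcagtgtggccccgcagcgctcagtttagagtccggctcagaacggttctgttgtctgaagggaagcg
Zfp36, chr7:28379179-28379478, minus strand: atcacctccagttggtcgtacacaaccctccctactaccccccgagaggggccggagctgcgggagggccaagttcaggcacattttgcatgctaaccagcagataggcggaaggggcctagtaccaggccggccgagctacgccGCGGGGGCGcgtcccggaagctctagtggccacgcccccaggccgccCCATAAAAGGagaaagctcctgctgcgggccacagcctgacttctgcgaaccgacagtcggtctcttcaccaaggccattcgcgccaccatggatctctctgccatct
Zfp36l1, chr12:80112964-80113263, minus strand: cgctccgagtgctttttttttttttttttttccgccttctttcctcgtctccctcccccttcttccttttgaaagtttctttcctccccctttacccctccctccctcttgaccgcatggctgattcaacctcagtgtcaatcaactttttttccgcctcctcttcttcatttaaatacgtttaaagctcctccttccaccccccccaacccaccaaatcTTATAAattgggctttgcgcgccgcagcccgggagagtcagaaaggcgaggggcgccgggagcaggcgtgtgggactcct

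The searched motifs were the full CRE (TGACGTCA), its half-site (TGACG), the TATA element (TATAA), the EGR element (GCGGGGGCG), the AP-1 element (TGACTCA or TGAGTCA) and the CArG box, which binds serum response factor, on both strands. The TATA element was found in 3 of the 4 windows, against 24.9% of all 32851 windows of this length. Its first base lay at -58 in Ier3, at -26 in Ier5 and at -29 in Zfp36l1, where a match on the other strand overlaps it from -30 to -26. The Zfp36 window held no TATAA but had a CArG box (CCATAAAAGG) from -58 to -49 and an EGR element from -105 to -97, motifs held by 1.63% and 2.91% of all windows. Within this CArG box lies CATAAAA, a variant that the study accepted as a TATA box in the gene Dusp1 and that was not searched here. The half-site of the CRE, which is in 20.8% of all windows, was in 0 of the 4, and so were the full CRE (1.79% of all windows) and the AP-1 element (5.2%). Of the 7 genes that passed the test of the light pulse, 5 had a window in the same source, with 9 windows in all. At least 1 window held the half-site for 4 of these genes, a TATA element for 2, a full CRE for 1 and a CArG box for 1. These counts are by gene, and a gene with several windows has more places for a match, so they are not like the shares of single windows. A match is a run of letters and not a shown binding site. The study searched a longer stretch upstream of the start codon, found its CRE with sequence matrices and required the elements to be present in other mammals too.

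**Figure D1:**
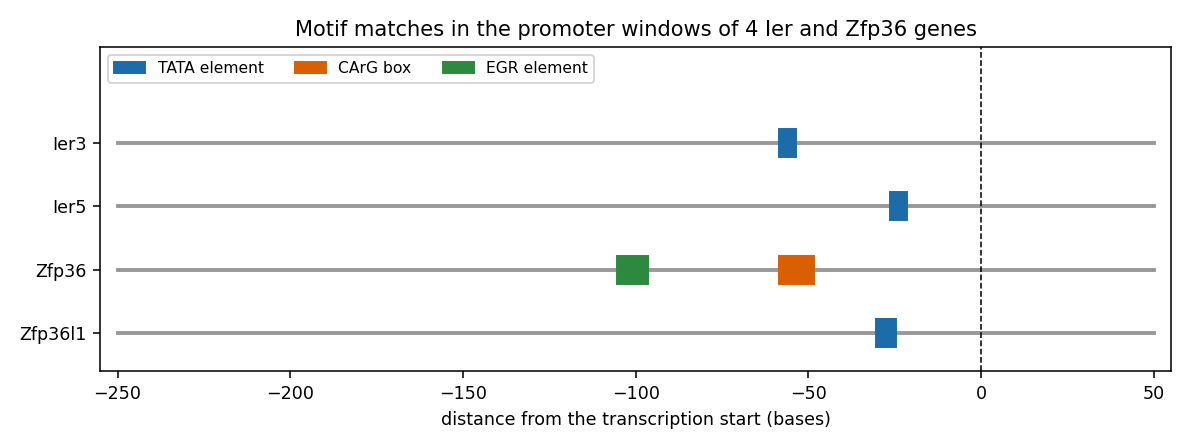
Motif matches in the promoter windows of Ier3, Ier5, Zfp36 and Zfp36l1, with the distance from the transcription start in bases on the x axis and 1 gene per row; coloured boxes are matches on either strand. A TATA element lies upstream of the start in Ier3, Ier5 and Zfp36l1, while Zfp36 has an EGR element and a CArG box, and no row has a CRE half-site.

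The signal of a probe set, in arbitrary units on a linear scale, was taken to log2 and compared between the groups with limma over the 10266 probe sets whose third-highest signal over the 6 arrays was at least 120. This level keeps 6 of the 11 Ier and Zfp36 probe sets and 5 of the 6 genes, all but Zfp36. At an adjusted p under 0.05 limma called 7 probe sets, all higher after the light pulse (0.0682% of those tested), and the Ier and Zfp36 probe sets supplied 0 of them. At an unadjusted p under 0.05 limma gave 1 of the 6, that of Ier2, on the higher side, where it gave 4.32% of all kept probe sets (2.1% higher and 2.21% lower). Cyber-T, the Bayesian test of the study's methods written anew, called 0 of the 6 after adjustment, against 0.0487% of all kept probe sets. Unadjusted it also gave only Ier2. This version called 5 probe sets in all, fewer than the study's own run passed at its stricter Bonferroni cut, so the p-values of the 2 versions differ. Adjusted p-values from limma ran from 0.960 to 0.994 over the 6. In 0 of the 6 kept probe sets, and in 0 of all 11, did the groups separate without overlap. Of all kept probe sets 10.1% did so, 5.62% with the light pulse arrays above and 4.46% with them below, and 0 of 6 is close to that share. Such tests weigh a difference against how far pools of 1 group lay apart, which may be technical, and the smallest p that exact permutation of 6 arrays allows is 0.1. In captured tissue a change in RNA per cell and a change in the share of cells that make it cannot be told apart.

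All 12 SCN neuron markers measured were kept, with summed signals of 97001 to 122747 on the light pulse arrays and 87504 to 98416 on sham light pulse arrays, and 0 of them were called. At an unadjusted p under 0.05 limma gave 1 of the 12, Vip, at 0.43 (standard error 0.19), against 4.32% of all kept probe sets. The endothelial and pericyte list lay lower on the light pulse arrays: its 9 measured genes summed to 4271 to 4979 on the light pulse arrays and 5238 to 7536 on the sham light pulse arrays, without overlap, the 5 kept genes were all below 0 (median -0.46), and 0 were called. Of these 5, limma gave 1 an unadjusted p under 0.05, Flt1 at -1.55 (standard error 0.48). Ier2, Ier3 and Zfp36l1 are also made by endothelial cells, and the part of the lower endothelial and pericyte signal in their values was not tested. Sums of astrocyte markers (38193 to 41334 after the light pulse and 35827 to 41861 after the sham light pulse) and of microglial markers (7741 to 10646 after the light pulse and 9185 to 11870 after the sham light pulse) overlapped. So did those of oligodendrocyte markers, at 36956 to 51477 after the light pulse and 28416 to 53685 after the sham light pulse. Light pulse replicate 3 stood apart in Ttr, the transthyretin gene that marks choroid plexus, with a signal of 110323 on its brightest probe set, against at most 295.6 on the other arrays. Of 5 measured choroid plexus genes only Ttr was kept, and 2 red blood cell genes measured summed to at most 102.0. Over the kept probe sets any 2 arrays correlated at r = 0.886 to 0.935 (log2).

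Ier2 encodes a short-lived nuclear protein induced by growth factors and by neuronal activity. Its signals were 597.5, 814.2 and 289.4 on the light pulse arrays, against 190.6, 294.4 and 196.0 on the sham light pulse arrays. Light pulse replicates 1 and 2 lay above every sham light pulse array, while replicate 3 lay just under the highest of them, so the groups overlapped by 1 pair of arrays. The mean signal was 567.0 ± 263.7 (SD, n = 3) after the light pulse and 227.0 ± 58.4 (SD, n = 3) in sham light pulse pools. On the log2 scale the difference was 1.23 with standard error 0.41, and limma gave an adjusted p of 0.960. The 95% confidence interval, not adjusted for the number of probe sets, was 0.35 to 2.10. As folds the interval runs from 1.27 to 4.30. Ier2 was the 1 gene of the 5 that stood more than 2-fold higher, as did 2.57% of the kept probe sets. Of these, 163 had a larger log2 fold change, and 94.9% of all kept probe sets lay within 2-fold of the sham light pulse. The exact permutation test of Ier2 alone gave p = 0.2, two-sided. Its lowest light pulse value was on replicate 3, the array with the Ttr signal, and the part of this in the Ier2 value was not tested. Without that array the log2 fold change of Ier2 was 1.65 (standard error 0.38, adjusted p = 0.662 from limma).

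Ier3 and Ier5 had higher mean signals after the light pulse, but their groups overlapped and neither passed the test. Ier3 had signals of 720.1, 336.4 and 452.8 on the light pulse arrays, against 364.6, 291.3 and 368.7 on the sham light pulse arrays. A single array, light pulse replicate 1, carried most of this, and without it the log2 fold change was 0.20 in place of 0.50 (standard error 0.35, 95% confidence interval -0.26 to 1.25, adjusted p = 0.960 from limma). Its probe set ends in _a_at, which marks probes shared by several transcripts of a gene.

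Ier5, which activates the heat shock factor HSF1 together with protein phosphatase 2A, is read by 3 probe sets, and these did not point the same way. The brightest had signals of 429.2, 813.9 and 739.4 on the light pulse arrays, against 373.6, 574.5 and 596.0 on the sham light pulse arrays. For it limma gave a log2 fold change of 0.34 (standard error 0.34, interval -0.40 to 1.07) and an adjusted p of 0.960. Both groups had their lowest array in replicate 1, and the light pulse replicates 2 and 3 were above all sham light pulse arrays. The probe set next in brightness read 74.0, 144.5 and 97.2 after the light pulse and 167.3, 105.0 and 141.2 after the sham light pulse, where limma gave a log2 difference of -0.42 (standard error 0.59, interval -1.69 to 0.86, adjusted p = 0.969). The third stayed between 2.3 and 20.6 on all arrays and was not tested. The 2 tested probe sets differ in sign, and their intervals overlap.

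Zfp36l1 (BRF1), an RNA-binding protein of the Zfp36 family, was read by 2 probe sets of very different brightness. The signals of the brighter were 2146.8, 1412.5 and 765.7 on the light pulse arrays, against 1046.5, 1813.2 and 1152.7 on the sham light pulse arrays, so that the highest and the lowest value of the 6 both came after the light pulse. The log2 fold change was 0.029 (standard error 0.37), and the interval of the fold, 0.588 to 1.77, leaves out a 2-fold change in either direction. Its sign depended on the arrays used, and the value was -0.32 without light pulse replicate 1. The dimmer probe set had 27.0, 24.7 and 13.0 after the light pulse and 40.4, 89.6 and 19.2 after the sham light pulse, all under the level kept for testing.

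Zfp36l2 (BRF2) was dim on all 3 of its probe sets. The brightest read 108.4, 204.7 and 188.7 after the light pulse and 67.8, 245.2 and 116.5 after the sham light pulse, reaching 120 on 3 arrays. Its groups overlapped over nearly their whole range, and the log2 fold change of 0.37 (standard error 0.59, adjusted p = 0.971 from limma) has an interval from -0.89 to 1.64. It was -0.069 without sham light pulse replicate 1. The other two probe sets stayed between 3.8 and 65.5.

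Zfp36, the founding member of the family and an immediate-early gene in many cell types, was read by 1 probe set, at 53.3, 96.6 and 15.1 on the light pulse arrays and 92.3, 11.0 and 51.7 on the sham light pulse arrays. It reached 120 on none of the 6 arrays and ranked between the 18.7 and the 51.8 percentile of its array. Values within a group differed 6.40-fold after the light pulse and 8.39-fold after the sham light pulse. In a fit of all 22626 probe sets the interval of its log2 fold change ran from -2.17 to 2.55, which takes in a 4-fold change in either direction.

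**Figure D2:**
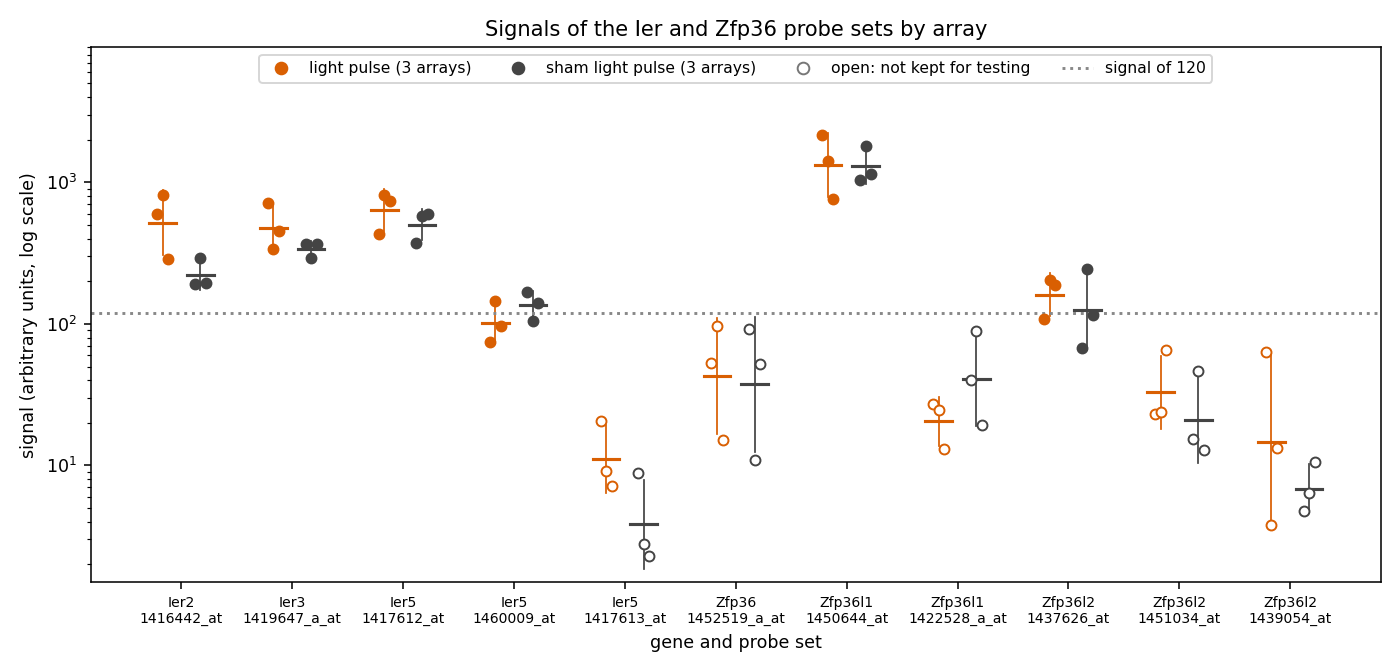
The 11 Ier and Zfp36 probe sets on the x axis and their signals (arbitrary units, log scale) on the y axis, with 1 point per array (3 light pulse and 3 sham light pulse arrays); the horizontal bar is the mean log2 signal of a group, the vertical bar its SD, and the dotted line the signal of 120. Groups overlap for every probe set, Ier2 by 1 pair of arrays, and the open points of Zfp36 lie between 11.0 and 96.6.

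Ordered by the change, the 5 tested genes ran from Ier2 (log2 fold change 1.23) over Ier3 (0.50), Zfp36l2 (0.37) and Ier5 (0.34) to Zfp36l1 (0.029), and the intervals of neighbours in this order overlap. The median was 0.37, where the median over all kept probe sets was 0.00. All 5 values, each from the brightest probe set of its gene, were above 0, as were 50.2% of the kept probe sets. The signs of Zfp36l1 and Zfp36l2 turned when an array was left out, and the other tested probe set of Ier5 lay at -0.42. The standard errors of the 6 tested probe sets, 0.34 to 0.59, were close to or above the median of 0.36 over all kept probe sets. For scale, the called probe sets included Fos at 4.94 and the kinase gene Pim3, the smallest, at 1.54, and the whole interval of Fos (4.27 to 5.62) lies above that of Ier2. The study also reported Klf4 and Jun as light-induced, from a looser cut on these arrays followed by qPCR. They were not called here, at 1.81 and 1.19 on their brightest probe sets (adjusted p = 0.280 and 0.960 from limma). A dimmer kept probe set of Jun had 1.78 and was not called either (adjusted p = 0.708 from limma). The study does not name the probe set behind its Jun result. A missing call alone thus does not set Ier2 apart from Klf4 and Jun, but Klf4 and the dimmer Jun probe set had larger changes than Ier2. The size of the change of Egr2 is poorly fixed, since its sham light pulse signals (32.2, 94.3 and 3.1) were all under 120. Pim3 had a smaller standard error than Ier2 (0.21 against 0.41) at a much brighter signal.

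**Figure D3:**
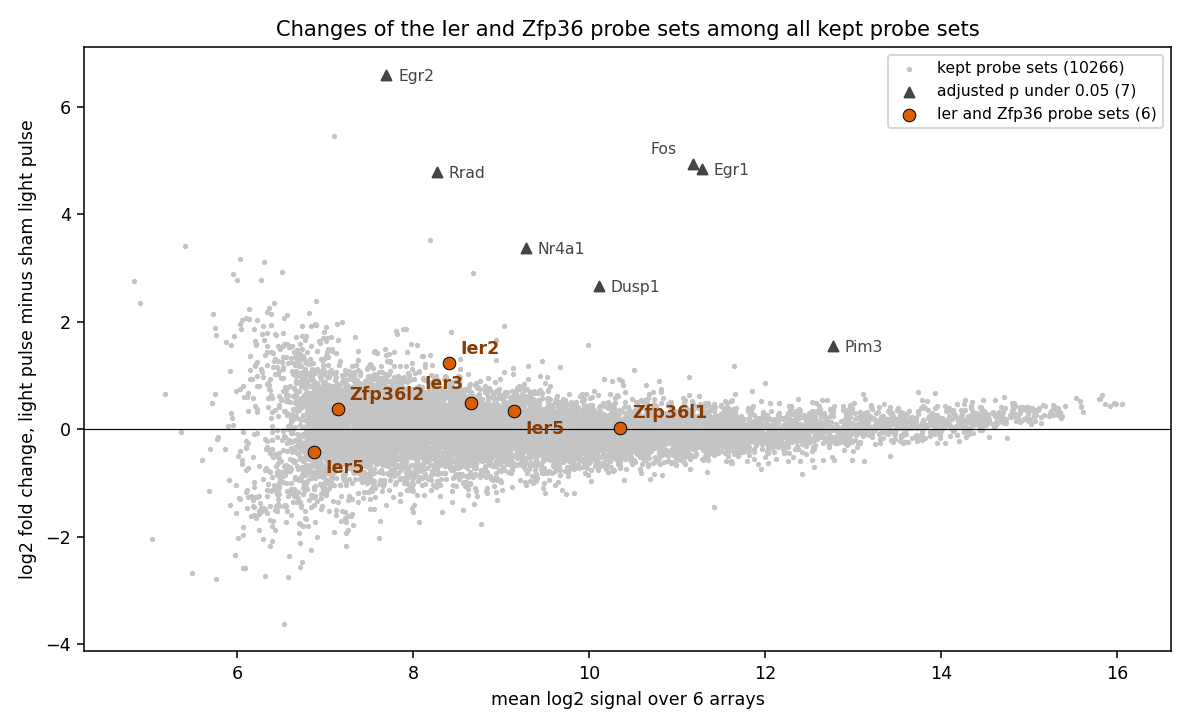
Log2 fold change, light pulse minus sham light pulse, on the y axis against the mean log2 signal over 6 arrays on the x axis, with 1 grey point for each of the 10266 kept probe sets; triangles are the 7 with an adjusted p under 0.05 and filled circles the 6 kept Ier and Zfp36 probe sets. Ier2, at 1.23, lies near the upper edge of the grey points of like signal, and the other 5 lie among them.

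**Figure D4:**
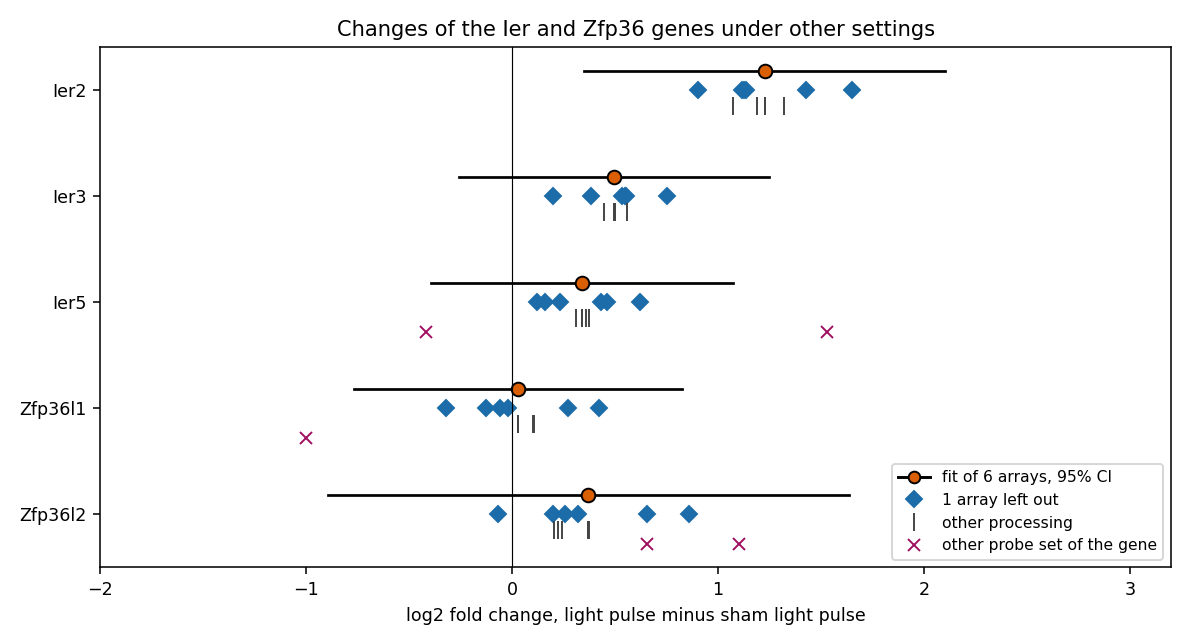
Log2 fold change, light pulse minus sham light pulse, on the x axis for the 5 tested genes (rows); circles with lines are the fit of 6 arrays with its 95% confidence interval, diamonds leave out 1 array, vertical ticks are other processing and crosses other probe sets of the same gene. Every diamond and tick of Ier2 lies above 0 (0.90 to 1.65), while the diamonds of Zfp36l1 fall on both sides of it.

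Across the 6 arrays the members did not share 1 pattern. Pearson correlations of their log2 signals, given as a description over 6 arrays, ran from -0.36 (Ier3 with Zfp36l2) to 0.81 (Ier5 with Zfp36l2), and Ier2 correlated with Ier3 at 0.32 and with Ier5 at 0.37. The genes whose pattern was most like that of each member, among about 9430 kept probe sets with 1 symbol, were Mrm3 (r = 0.98) and Fam131b (0.97) for Ier2, Csf1 (0.98) and 2310075K07Rik (0.98) for Ier3, and Polr2g (0.99) and Tspan13 (0.98) for Ier5. They were Pip4k2a (1.00) and Ggps1 (0.98) for Zfp36l1 and Iah1 (0.99) and Nudt4 (0.98) for Zfp36l2. Each is the highest or next highest of that many correlations over only 6 arrays, and 0 of these 10 genes passed the test of the light pulse.

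Most measured genes of the machinery through which ZFP36 proteins act passed the level for testing. With 0.0682% of all kept probe sets called, lists of this size would mostly hold 0 called genes, and the counts of 0 here and for the regulators show nothing particular to them. Of 22 measured genes of the CCR4-NOT complex, deadenylation and decapping, 18 were kept and 0 were called in either direction, with a median log2 fold change of -0.04. Cnot2, a CCR4-NOT subunit, had 8244.9, 6115.3 and 7926.4 after the light pulse and 8219.7, 7245.1 and 7111.1 on the sham light pulse arrays. The difference on the log2 scale was -0.03 with a standard error of 0.21, and that of Btg1, a CCR4-NOT partner, was -0.25 (standard error 0.28). At an unadjusted p under 0.05 limma gave 2 of these 18 genes, chosen here after their values were seen, against 4.32% of all kept probe sets. Tob1, which links deadenylases to RNA-binding proteins, had 1579.5, 1248.3 and 2360.1 after the light pulse and 770.4, 1383.0 and 674.1 after the sham light pulse. Edc4, a decapping scaffold, had 1271, 989.1 and 786.6 after the light pulse and 622.6, 660.1 and 452.7 after the sham light pulse. Of these 2 genes the groups of Tob1 overlapped and those of Edc4 did not, and both had an adjusted p of 0.960 from limma. In the same list the groups of Tob2 and Dcp1a did not overlap either, with the light pulse arrays above. This held for 5.62% of the kept probe sets in that direction. Of the RNA exosome 8 of 10 measured genes were kept and 0 called (median -0.05), with the core subunit genes Exosc9 at -0.16 (standard error 0.26) and Exosc8 at 0.23 (standard error 0.32). Of 13 other AU-rich element binding proteins 12 were kept and 0 called (median -0.09), with the RNA-binding protein genes Hnrnpdl at 0.32 (standard error 0.20) and Celf1 at 0.08 (standard error 0.30). At an unadjusted p under 0.05 limma gave 0 genes of both lists.

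Regulators of both families were read in the same way, against the same share of 0.0682% called. Of the p38, MK2, AKT and YWHA adaptor genes that act on ZFP36 proteins, 12 of 15 measured were kept and 0 called, in either direction, and 0 had an unadjusted p under 0.05 from limma. Their median was 0.16, and the brightest, the adaptor genes Ywhab and Ywhaq, had 0.24 (standard error 0.18) and 0.09 (standard error 0.18). Of the protein phosphatase 2A, HSF1 and chaperone genes tied to IER proteins, 12 of 15 were kept and 0 called (median -0.29, with 2 of 12 above 0). Hsf1 itself was not among these 12. Dnajb1, a chaperone gene that HSF1 controls, read 23883, 22724 and 25335 after the light pulse and 17719, 17009 and 14526 after the sham light pulse. Its groups did not overlap, as for 5.62% of the kept probe sets in that direction, and limma gave a log2 fold change of 0.55 with standard error 0.17 and an adjusted p of 0.960, being the 1 gene of this list with an unadjusted p under 0.05. Ppp2r1a, the scaffold subunit of protein phosphatase 2A, had 0.30 (standard error 0.19, groups overlapping). These 2, the brightest of the list, were the only ones of its 12 kept genes above 0. Hspa1a and Hspa1b, chaperone genes that HSF1 also controls, named here after their values were seen, both had -0.43 (standard errors 0.32 and 0.41). The 100 brightest kept probe sets, each above Dnajb1 and Ppp2r1a in mean signal, had a median log2 fold change of 0.32 with 99 of them above 0, and whether such a shift enters the values of both genes was not tested. Of the SRF, TCF and CREB activators 6 of 11 measured were kept and 0 called, with 0 at an unadjusted p under 0.05 from limma (median 0.25). Creb1 itself was not among these 6. Srf, which encodes the factor that binds CArG boxes, read 640.6, 755.9 and 772.8 after the light pulse and 421.6, 462.3 and 600.6 after the sham light pulse, again without overlap, and limma gave 0.56 on the log2 scale (standard error 0.29, adjusted p = 0.960). Rps6ka3, which encodes a CREB kinase, had 0.38 (standard error 0.39).

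AU-rich element transcripts, the class on which ZFP36 proteins act, included strongly raised genes. Of 26 measured, 13 were kept, and 3 were called higher (Fos, Egr1 and the MAP kinase phosphatase gene Dusp1) and 0 lower. Of all kept probe sets 0.0682% were called. The study had singled out all 3 on these arrays, so the count is no independent evidence of a direction. At an unadjusted p under 0.05 limma gave 6 of the 13, Ier2 among them, against 4.32% of all kept probe sets. The list also holds Ier3, Zfp36 and Zfp36l1, and its median log2 fold change of 0.50 is the value of Ier3. Fos had 14254, 10400 and 14457 on the light pulse arrays, against 667.7, 297.6 and 370.0 on the sham light pulse arrays. Of the 7 called genes, 1 (Nr4a1) was lowest of its group on light pulse replicate 3, as were Ier2 and Zfp36l1.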

How the data were processed

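RNA from laser-captured SCN was read on Affymetrix Mouse 430A 2.0 arrays, 3 after a light pulse and 3 after a sham light pulse. The deposited values are probe set signals, an intensity that the authors computed with MAS5 (Affymetrix) and brought to the same trimmed mean on every array. It is linear, with trimmed means (2% from each end) of 492.3 to 495.6. Groups came from the sample labels. Of 22626 probe sets 20380 had 1 symbol, 691 several and 1555 none. Those with 1 were named, and 20351 of them matched a RefSeq gene by Entrez ID, with 0 changes among the 11 used here.

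The log2 of the signal, with no offset, was fitted with limma 3.58.1 in R 4.3.3 (eBayes with intensity trend, two-sided, Benjamini-Hochberg, threshold 0.05). In place of present calls, which were not used here, 10266 probe sets whose third-highest signal was at least 120 were kept. The brightest probe set stood for a gene. Cyber-T used a window of 101 and a prior weight of 10. Both tests were tried on simulated data. Named were all members, of each list the called genes or the 2 brightest, and the 2 genes most like each member. Members and lists were chosen with earlier results of these data known. Gene lists were described by counts and medians only. Arrays carry no read depth, so their number limits the precision.

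Alternatives were other filters (none, 300, or the 10340 probe sets that the methods kept), quantile and 75th percentile normalization, an offset of 50, no trend, Cyber-T, blocking on the replicate number, dropping probe sets ending in _s, _x or _a, other probe sets, arithmetic means, and leaving out each array.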

Additional observations from a re-analysis of the deposited data

How the results depend on the processing

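No Ier or Zfp36 probe set was called under any of the 16 alternatives to the main comparison, and their lowest adjusted p was 0.662 (without light pulse replicate 3). Over all probe sets 7 were called higher, against 4 without the intensity trend and 5 to 8 with 1 array left out, and 0 lower under each. Ier2, Ier3 and Ier5 kept their direction with each array left out (0.90 to 1.65, 0.20 to 0.75 and 0.12 to 0.62 on the log2 scale), whereas Zfp36l1 ran from -0.32 to 0.42, below 0 without light pulse replicate 1 or 2 and without sham light pulse replicate 1 or 3, and Zfp36l2 from -0.069 (without sham light pulse replicate 1) to 0.86. Other probe sets gave -0.42 and 1.53 for Ier5, -1.001 for Zfp36l1 and 0.65 and 1.1 for Zfp36l2, all but the first from probe sets under the level kept for testing. The replicate numbers mark no stated pairing, and same-numbered arrays deviated together at r = 0.098, -0.198 and -0.132. With the replicate number as a block 6 probe sets were called, 0 of them Ier or Zfp36 genes, and Ier2 had an adjusted p of 0.995. The filter at 300 left out Ier2 and Zfp36l2, and leaving out shared probe sets left out Ier3. With 1 array left out, the number of calls in each gene list was the same except among immediate-early transcription factors, at 3 to 4. Zfp36 was too dim to be tested.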

Other observations

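Other immediate-early transcription factors held most of the called genes. Of 20 measured 9 were kept, and all 9 lay above 0, as did 50.2% of all kept probe sets. Limma called 4, against 0.0682% of all kept probe sets. They were Fos, Egr1, Egr2 and Nr4a1, which the study had singled out on these arrays. At an unadjusted p under 0.05 limma gave 7 of the 9, against 4.32% of all kept probe sets. The median log2 fold change of 1.81 is the value of Klf4, also singled out by the study (adjusted p = 0.280 from limma). Maff, a small MAF protein gene named here after its value was seen, read 161.7, 152.6 and 195.1 after the light pulse and 56.2, 93.4 and 37.2 after the sham light pulse, without overlap, at signals near the level kept for testing (log2 fold change 1.54, standard error 0.68, adjusted p = 0.960 from limma). Jund, the brightest gene of the list that was not called, read 3131, 3172 and 2771 after the light pulse and 2459, 2182 and 1858 after the sham light pulse (log2 fold change 0.49, standard error 0.24, adjusted p = 0.960 from limma).

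Among the AU-rich element transcripts the survival gene Mcl1 read 17269, 14494 and 20029 after the light pulse and 13380, 10283 and 11586 after the sham light pulse on its brightest probe set. The groups did not overlap there, as for 5.62% of the kept probe sets in that direction. For it limma gave a log2 fold change of 0.55 with standard error 0.20 and an adjusted p of 0.960. A dimmer kept probe set of Mcl1 had only 0.18 (adjusted p = 0.971 from limma). The NF-kappaB inhibitor gene Nfkbia had 0.10 (standard error 0.25).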
